A study of Mus musculus with 9 samples.

Results

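The cells described here are non-cycling macrophages with little or no transcript of Mrc1, the mannose receptor CD206, in cultures of mouse embryonic fibroblasts (MEFs) on their way to induced neurons (iNs). They were chosen on measured values in 4 steps. First, barcodes with at least 3000 UMI (unique molecular identifiers, each standing for 1 captured RNA molecule) and at most 20% mitochondrial UMI were kept. Second, a macrophage had a sum of Csf1r, Tyrobp, Fcer1g, Ctss, Laptm5 and C1qb of at least 30 UMI per 10000 and a sum of Col1a1, Col1a2 and Col3a1 under 60 per 10000. Next, a non-cycling cell had under 3 UMI of Mki67 and Top2a together. Last, an Mrc1-low cell had under 2 UMI of Mrc1 per 10000. This gave 361 cells out of 5772 non-cycling macrophages, 7258 macrophages, 81999 cells that passed the limits and 95603 barcodes. The other 5411 non-cycling macrophages are called Mrc1-high below.

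The data are 10x Genomics 3′ libraries of 3 genotypes on days 4, 7 and 10 of reprogramming, with 1 library per genotype and day and thus 9 libraries in all. The WT cultures carry no targeted allele, the Per1-/- cultures carry Per1tm1Drw and the Per2-/- cultures carry Per2tm1Drw, and Per1 and Per2 encode circadian clock repressors. MEFs came from embryos whose head and heart had been removed, with 4 embryos pooled per dish, and all cultures received the same lentiviruses for doxycycline-inducible transcription factors, Brn2 (Pou3f2) and Myt1l among them, and for the M2rtTA transactivator. Doxycycline was added to every culture to start the days counted, and there is no untransduced culture among the groups. The study asked whether circadian clock regulators control reprogramming.

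Macrophages of the embryo settle in tissues and renew there, and many of those that line vessels and connective tissue display the mannose receptor Mrc1 together with other scavenger receptors such as Stab1. Mrc1 takes up glycoproteins with exposed mannose and its level falls or rises with the state of the cell, so a low level can mark another kind of macrophage, another state, or a cell in which few molecules were captured. The transcription factor PU.1, encoded by Spi1, binds purine-rich sites with a GGAA core in many genes of macrophages and related cells.

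The promoters of Mrc1 and of 3 genes that were much lower in the Mrc1-low cells are shown because they are the genes the contrast turns on. Each line gives 250 bases before to 50 bases after the start that RefSeq gives, 5′ to 3′ on the strand of the gene, from RefSeq on GRCm38.p6. Capitals mark each match to GAGGAA on either strand, the letters of a PU.1 core, which read TTCCTC on the opposite strand. For Stab1 and Ccl12 this start is that of the GENCODE gene positions given elsewhere here, but for Mrc1 and Fcgr2b it is not, and by the GENCODE position the Fcgr2b window lies wholly inside the gene. The windows are chr2:14229164-14229463 on the plus strand for Mrc1, chr14:31168592-31168891 on the minus strand for Stab1, chr11:82101595-82101894 on the plus strand for Ccl12 and chr1:170976022-170976321 on the minus strand for Fcgr2b.
Mrc1: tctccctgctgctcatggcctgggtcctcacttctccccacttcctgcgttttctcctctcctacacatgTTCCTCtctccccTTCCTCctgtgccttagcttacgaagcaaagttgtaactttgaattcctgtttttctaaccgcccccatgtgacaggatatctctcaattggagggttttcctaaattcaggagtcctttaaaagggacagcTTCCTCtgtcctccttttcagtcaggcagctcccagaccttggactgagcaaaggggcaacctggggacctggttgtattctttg
Stab1: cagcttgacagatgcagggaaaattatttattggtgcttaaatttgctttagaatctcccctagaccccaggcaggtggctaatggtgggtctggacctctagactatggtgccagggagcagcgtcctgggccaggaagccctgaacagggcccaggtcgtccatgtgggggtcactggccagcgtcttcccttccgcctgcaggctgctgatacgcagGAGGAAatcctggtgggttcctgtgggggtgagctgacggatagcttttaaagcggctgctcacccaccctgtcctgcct
Ccl12: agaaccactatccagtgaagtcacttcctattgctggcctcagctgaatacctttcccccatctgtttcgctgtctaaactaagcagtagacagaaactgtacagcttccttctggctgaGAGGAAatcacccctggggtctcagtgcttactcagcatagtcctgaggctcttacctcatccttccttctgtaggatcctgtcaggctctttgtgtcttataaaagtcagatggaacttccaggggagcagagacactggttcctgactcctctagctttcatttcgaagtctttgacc
Fcgr2b: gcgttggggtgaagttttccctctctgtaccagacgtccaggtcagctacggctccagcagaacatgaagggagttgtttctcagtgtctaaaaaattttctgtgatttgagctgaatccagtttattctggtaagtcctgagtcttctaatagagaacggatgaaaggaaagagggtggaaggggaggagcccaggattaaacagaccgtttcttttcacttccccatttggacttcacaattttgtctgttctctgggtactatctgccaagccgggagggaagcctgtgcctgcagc
The Mrc1 window held 3 matches, the Stab1 and Ccl12 windows 1 each and the Fcgr2b window 0. Among the 15 named genes that were lower in Mrc1-low cells, 12 matched a promoter in the table and 6 of these (50%) held the letters, as did 4 of 12 (33.3%) for the 15 named genes that were higher and 28.3% of all 32851 promoters. A match describes these letters only and is not a site of binding.

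Mrc1-low cells were present in each library, but in small numbers. There were 24, 37 and 35 in WT on days 4, 7 and 10, 33, 68 and 20 in Per1-/-, and 20, 51 and 73 in Per2-/-. Mrc1 had 0 UMI in 176 of the 361 cells and 1 UMI in 58. The limit allows no Mrc1 UMI in a cell under 5000 UMI, as 70 of the 361 cells were. The 3 cells nearest to the limit from below had 1.96 to 1.98 Mrc1 UMI per 10000 and the 3 nearest from 2.0005 to 2.036, and the 3 cells nearest to the macrophage limit had 30.1 inside and 28.9 to 29.96 outside. In the summed counts of a library, Mrc1 (chromosome 2, 14229392 to 14332057, GRCm38) stood at 36.8 to 107 CPM (UMI of the gene per 1000000 UMI of the sum) in Mrc1-low cells and at 1119 to 2185 CPM in Mrc1-high cells, which is the split the rule made.

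The label of macrophage was checked gene by gene. A UMI of Fcer1g, the shared chain of Fc receptors, was present in 361 of 361 Mrc1-low cells, and Tyrobp, a signalling adaptor, in 360. Ctss, a lysosomal protease, was present in 342, C1qb in 341, Laptm5 in 336 and Csf1r, the receptor for macrophage growth factor, in 294. These 6 genes were used by the rule. Of genes it did not use, Spi1 stood at a median of 378 CPM over the 9 libraries, Ptprc (CD45) at 311 CPM, Adgre1 (F4/80) at 266 CPM and Cd68 at 911 CPM. Erythroid and mast cell markers summed to at most 0.786 and 5.70 CPM in any library, neutrophil markers to at most 14.97 CPM and endothelial markers to at most 24.5 CPM. The cells are macrophages by these genes, with exceptions that are described by cluster below.

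The Mrc1-low cells were shallower and less pure than the Mrc1-high cells, and these values stand beside all that follows. Their median was 14626 UMI per cell against 21177, and 70 of 361 had under 5000 UMI (19.4%) against 120 of 5411 (2.22%). In WT on day 10 the median of the Mrc1-low cells was 4525 UMI, the lowest of the 9 libraries. Cells marked as likely doublets were 54 of 361 (14.96%) against 290 of 5411 (5.36%), and cells with a macrophage sum of only 30 to 60 per 10000 were 74 (20.5%) against 142 (2.62%). Fibroblast markers summed to a median of 1105 CPM over libraries in Mrc1-low cells and 539 CPM in Mrc1-high cells, against 13041 CPM in the cells that are not macrophages. Values without doublets and with a macrophage sum of at least 60 per 10000 are therefore given for the lists and genes they move most. Of 93922 distinct barcodes, 1537 occurred in more than 1 library, 2 Mrc1-low barcodes among them, and none was an Mrc1-low cell in more than 1 library.

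With all cells kept, the share of Mrc1-low cells among non-cycling macrophages was highest in WT on each day, but in cells of at least 10000 UMI it was not on day 10. It was 22.2% in WT on day 4 (24 of 108 cells, 95% exact binomial interval 14.8 to 31.2), 9.34% on day 7 (6.66 to 12.6) and 10.0% on day 10 (7.09 to 13.7). In Per1-/- it was 13.3%, 5.84% and 1.64% on days 4, 7 and 10, the last being 20 of 1217 cells (1.01 to 2.53). In Per2-/- it was 13.5%, 4.64% and 6.999%. The intervals cover counting error only. On day 10, 21 of the 35 WT cells had under 5000 UMI, and 25 belonged to the fibroblast-rich cluster 1 described below. In cells of at least 10000 UMI the day 10 share was 2.20% in WT (4 Mrc1-low cells) and 5.57% in Per2-/- (55 cells), and in cells with Y-linked UMI and no Xist UMI it was 2.63% (1 of 38 cells) and 4.10%. In cells with Xist UMI and no Y-linked UMI it was 10.5% and 5.57%.

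Across days the WT share exceeded the mean of both mutants by 6.21 percentage points, and of the 27 assignments of genotypes within days none gives a two-sided exact p below the 0.037 found here. The slope of the share on day was -1.69 percentage points per day (exact permutation p = 0.037 over all orders of days within genotypes). The share was lower on day 7 than on day 4 in all 3 genotypes, but on day 10 it was lower than on day 7 in Per1-/- alone. The difference from the mean of the other genotypes was -4.196 points for Per1-/- (exact permutation p = 0.222) and -2.01 points for Per2-/- (exact permutation p = 0.556). After Benjamini-Hochberg adjustment over the 4 tests none passed 0.05, the exact permutation test giving adjusted p of 0.0741 for WT and for day, 0.296 for Per1-/- and 0.556 for Per2-/-. Over the 16 alternatives run, adjusted p ranged from 0.0741 to 0.37 for both WT and day, and the signs did not change. With each cell thinned to 3000 UMI the shares with no Mrc1 UMI were 27.5%, 13.4% and 16.04% in WT, 17.7%, 9.97% and 4.03% in Per1-/- and 20.9%, 8.28% and 14.0% in Per2-/-. Per2-/- on day 10 came close to WT in these shares. No UMI in 3000 is another limit than under 2 UMI per 10000, so depth and limit cannot be told apart in these levels. The WT excess was 2.86 points when only cells of at least 10000 UMI were kept and 10.6 points with the Mrc1 limit at 4 per 10000. Since the rule fixes Mrc1 alone, a lower share may come from more Mrc1-high cells as well as from fewer Mrc1-low cells. The Mrc1-low cells were 0.276%, 0.431% and 0.511% of all cells in WT, 0.303%, 1.06% and 0.218% in Per1-/- and 0.240%, 0.457% and 0.612% in Per2-/-.

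**Figure D1:**
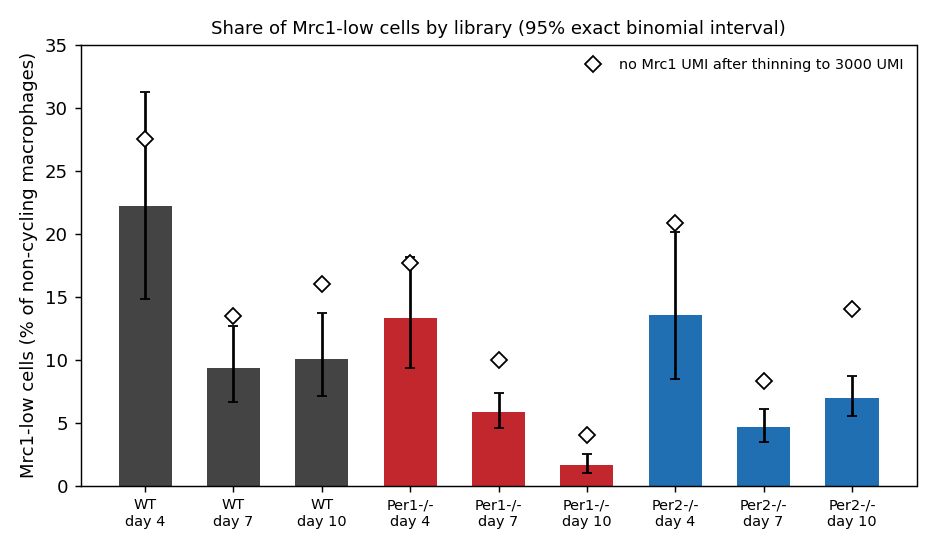
Share of Mrc1-low cells among non-cycling macrophages (y axis, %) in each of the 9 libraries (x axis), as bars with 95% exact binomial intervals for counting error, and the share with no Mrc1 UMI after thinning to 3000 UMI as diamonds. The WT bar is the highest on days 4, 7 and 10, at 22.2%, 9.34% and 10.0%, but in cells of at least 10000 UMI, not drawn, WT is at 2.20% on day 10 and Per2-/- at 5.57%.

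Mrc1-low cells differed from Mrc1-high cells of the same libraries in few genes, and after Mrc1 itself Stab1 and Ccl12 had the largest median differences among those that were lower. Because the split was made on Mrc1 in these same cells, these differences are described without a test. A gene counts as past the fold when the median over libraries of log2((CPM + 5)/(CPM + 5)) between both classes was at least 1 in size and its sign was the same in all 9 libraries, among 6370 genes with a mean of at least 20 CPM in the higher class. On this rule 42 genes were lower in Mrc1-low cells (0.659% of those compared) and 22 were higher (0.345%). These counts include Mrc1 among the lower and Col1a1 among the higher genes, both of which the choice of cells used. The median of all genes compared was -0.03. With 0 UMI of Mrc1 as the limit, which left Mrc1-low sums of only 66877 to 327241 UMI, the counts were 88 and 13. With cells of at least 10000 UMI they were 43 and 22. Without WT, Per1-/- or Per2-/- on day 4 or Per2-/- on day 10, the genes higher numbered 36, 49, 35 and 35, and the cause was not tested. In cells with a macrophage sum of at least 60 per 10000 and without doublets they were 37 lower and 11 higher.

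Stab1, which encodes the scavenger receptor stabilin-1, was the gene furthest down among those named. It stood at 36.0, 66.2 and 36.8 CPM in the Mrc1-low cells of WT on days 4, 7 and 10, 111, 57.0 and 39.9 CPM in Per1-/- and 37.6, 114 and 139 CPM in Per2-/-. In the Mrc1-high cells it ran from 144 to 553 CPM, so the ranges of both classes did not overlap. The median log2 ratio was -2.23 (range over libraries -3.30 to -1.06).

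Gas6, a bridging ligand that ties dying cells to the receptors Axl and Mertk, behaved much the same way. It ranged from 89.8 to 231 CPM in Mrc1-low cells and from 321 to 826 CPM in Mrc1-high cells, with a median log2 ratio of -1.87. Snx2, an endosomal sorting protein, had the narrowest spread of the named genes. It stood at 137 to 221 CPM against 376 to 603 CPM, with log2 ratios from -1.68 to -1.17. Dab2, an endocytic adaptor, stood at 233 to 773 CPM against 933 to 1572 CPM, again without overlap, with a median log2 ratio of -1.41.

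The chemokine genes Ccl12 and Ccl7, which attract monocytes, were also lower. Ccl12 ranged from 2.82 to 28.6 CPM in Mrc1-low cells and from 25.2 to 122 CPM in Mrc1-high cells, a median log2 ratio of -2.18, with the lower class below the higher class in each library although the ranges overlapped. Ccl7 was lower by 1.69 as a median log2 ratio from levels of only 7.06 to 60.4 CPM in Mrc1-high cells. Fcgr2b, the inhibitory receptor for IgG, ranged from 2.40 to 103 CPM against 23.1 to 301 CPM. Its median log2 ratio was -1.67. Of the other named genes that were lower, Rab32, a GTPase of lysosome-related organelles, had a median log2 ratio of -1.31. Nxpe5, Ddx60, Nt5dc2, Cnrip1, Nfxl1 and Npl had median log2 ratios of -1.90 to -1.27.

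**Figure D2:**
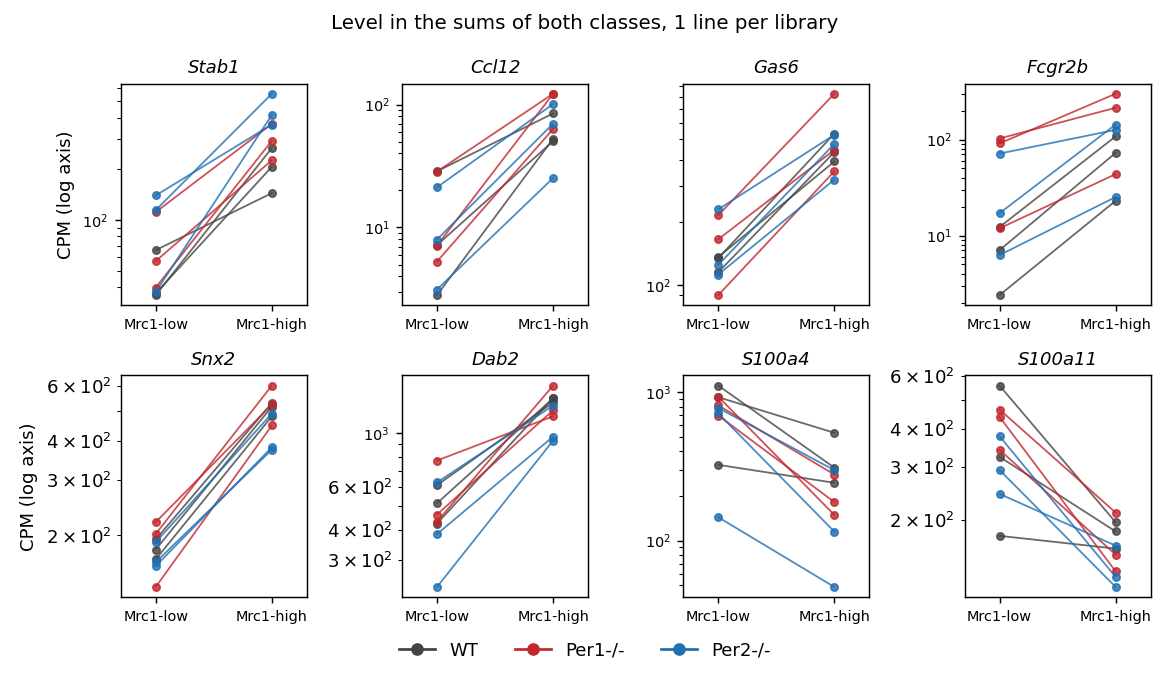
Levels of 8 genes in CPM (y axes, log scale) in the summed Mrc1-low and Mrc1-high cells of each library, with 1 line per library coloured by genotype. Stab1, Ccl12, Gas6, Fcgr2b, Snx2 and Dab2 rise from left to right in all 9 libraries, and S100a4 and S100a11 fall.

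The list of genes that go with Mrc1 in tissue-resident macrophages held 9 genes high enough to compare, and all 9 had a median log2 ratio below 0, with 6 past the fold (median of the list -1.16, against -0.03 for all genes). Past the fold were Stab1, Gas6, Selenop, a selenium transport protein, Maf, a transcription factor of resident macrophages, Pf4, a platelet-type chemokine, and Fcrls. Selenop stood at 746 to 4876 CPM against 2428 to 6814 CPM and Maf at 536 to 994 CPM against 1163 to 2075 CPM. With the stricter macrophage limit and no doublets the list median was -0.93 and 4 of 9 were past the fold. The difference did not hold in every cluster of the Mrc1-low cells described below. All 21 genes of the list summed to 10220 CPM in cluster 4 and 6772 CPM in cluster 5, within the 5748 to 12054 CPM of the Mrc1-high libraries. The other clusters summed to 2028 to 4047 CPM. Igf1 had the smallest difference of the list, with a median log2 ratio of -0.47 and a sign that was the same in 6 of 9 libraries.

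Interferon response genes mostly had ratios below 0. Of 28 compared, 27 had a median below 0, as did 3528 of all 6370 genes, and 1, Ifit3, was past the fold. Ifit3 stood at 3.13 to 143 CPM against 15.2 to 296 CPM (median log2 ratio -1.01). The list median was -0.59, and -0.52 with the stricter macrophage limit and no doublets. Levels of the list ran over a wide range between libraries in both classes. Bst2, an antiviral membrane protein, was at 241 to 1021 CPM against 384 to 1360 CPM with a ratio below 0 in each of 9 libraries, while Ifi27l2a had a median log2 ratio of 0.09.

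No general macrophage marker or lysosome gene was past the fold. Of 17 macrophage markers, 13 had a median below 0 (list median -0.40, against -0.03 for all genes), with Fcgr3 at -0.86, Adgre1 at -0.79 and Lyz2 at -0.44, but Ptprc at 0.03 and Spi1 at 0.13. Of 23 lysosome and phagocytosis genes, 20 were below 0 (list median -0.31), including the cathepsin genes Ctsb at -0.41 and Ctsd at -0.34. Of 24 TNF and NF-kB response genes, 13 were below and 11 above 0. Tnf itself was at 5.50 to 39.6 CPM against 9.51 to 44.5 CPM, with overlapping ranges. Il1rn, the antagonist of interleukin-1, was above 0 in 9 of 9 libraries (8.64 to 165 CPM against 5.89 to 54.2 CPM, median log2 ratio 0.93, and 1.35 with the stricter limit and no doublets). Of 12 glycolysis and hypoxia genes 10 were above 0, with a list median of 0.24.

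Among the genes that were higher in Mrc1-low cells, S100a4, a calcium-binding protein of motile cells and monocytes, was the most abundant. It stood at 925, 324 and 1109 CPM in WT on days 4, 7 and 10, 815, 696 and 934 CPM in Per1-/- and 783, 720 and 144 CPM in Per2-/-. In the Mrc1-high cells of the same libraries it ran from 48.7 to 533 CPM. Each library had more in its Mrc1-low cells, with a median log2 ratio of 1.53 (0.39 to 2.61) that was 1.55 with the stricter macrophage limit and no doublets. S100a11 stood at 178 to 556 CPM against 120 to 212 CPM (median log2 ratio 1.12) and was still past the fold under that limit, as were Slamf9, Cd72 and Glipr1. S100a6 ranged from 279 to 1177 CPM against 115 to 467 CPM, with a median log2 ratio of 1.24 that was 0.87 under that limit. Lsp1, a leukocyte actin-binding protein, had a median log2 ratio of 1.35, Klf4, a transcription factor, 1.26, and Ass1, an enzyme of arginine synthesis, 1.80 from low levels of 2.28 to 113 CPM. Under that limit Klf4 was at 0.89, and Lsp1 and Ass1 kept 1 sign in 8 and 7 of 9 libraries, so none of these 3 was past the fold. Medians in the cells that are not macrophages were 302 CPM for S100a4, 804 CPM for S100a11 and 2593 CPM for S100a6. They were 181 CPM for Lsp1, 95.8 CPM for Klf4 and 36.7 CPM for Ass1. Each was above the median of the Mrc1-high cells, and all but those of S100a4 and Lsp1 above that of the Mrc1-low cells. The part of RNA from such cells in these ratios was not tested.

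Other named genes that were higher are typical of fibroblasts rather than macrophages. Gas1, Lox, Aspn, Penk and Prrx1 had median log2 ratios of 1.17 to 1.46. All 12 fibroblast markers compared were above 0, with a list median of 0.87. In cells with a macrophage sum of at least 60 per 10000 and no doublets this list median was 0.07, and the signs of Penk and Prrx1 turned to -0.03 and -0.10. In cells with 0 UMI of Mrc1 all 5 turned, to -0.97 for Gas1, -0.37 for Lox, -0.42 for Aspn, -0.15 for Penk and -0.46 for Prrx1. The Mrc1-low sums then held only 66877 to 327241 UMI, so these genes had few counts, and the part of depth was not tested. The 4 neuron markers compared had a list median of 0.63, and 0.17 with the stricter macrophage sum and no doublets. The transduced factor Pou3f2 was above 0 as well, with a median log2 ratio of 0.76, and 0.73 with the stricter sum and no doublets.

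Clock genes were sparse in the Mrc1-low cells. Per1 had 56 UMI in all, at 2.40, 8.45 and 0 CPM in WT on days 4, 7 and 10, 10.6, 17.8 and 14.2 CPM in Per1-/- and 9.39, 5.70 and 2.36 CPM in Per2-/-. Per2 had 7 UMI in all, at 0 to 5.70 CPM. A 3′ library counts any transcript that keeps its 3′ end, and whether these alleles keep it is not given in the sources used here, so these counts check no label. Of 8 clock genes compared between classes, 7 were above 0, with a list median of 0.16 that turned to -0.07 with the stricter macrophage limit and no doublets. The largest difference was that of Bhlhe40, a clock repressor, at 1.10 with an equal sign in 6 of 9 libraries.

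The 361 cells fell into 8 clusters, made from all variable genes except Mrc1, sex-linked and mitochondrial genes and the 24 genes that moved at least 4-fold from day 7 to day 10 in the summed non-macrophage cells of all 3 genotypes. The clusters are named by number and leading genes, which are a description, because the same genes made them. Counts of genes at least 2-fold higher are over all genes of a list. The share of all genes is over those with at least 20 CPM in the cluster or in the other Mrc1-low cells. A gene high in the cluster alone can reach that level.

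Cluster 1, with 75 cells, was led by Meg3, Ptn, Sparc, Col1a2 and Dcn, which are fibroblast genes. Sparc, a matrix protein, was at 1245 CPM there and at 166 CPM in Mrc1-high cells. Of the lists, 13 of 16 fibroblast and 11 of 15 neuron markers were at least 2-fold above the other Mrc1-low cells, as were 9.64% of all genes with at least 20 CPM. Fibroblast markers summed to 3991 CPM against 235 CPM in the other Mrc1-low cells. Neuron markers summed to 768 CPM against 95.5 CPM. Doublets made up 39 of its 75 cells (52%), its median depth was 25900 UMI and its macrophage sum had a median of 64.3 per 10000. It held 25 of the 35 Mrc1-low cells of WT on day 10. Of those 35 cells only 1 was marked as a doublet and 21 had under 5000 UMI, so the doublets of cluster 1 came almost wholly from other libraries. It is not called a macrophage type here.

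Cluster 2, with 62 cells from 9 libraries, had Mmp12, a macrophage elastase, Npy, Cd36, a fatty acid and oxidised lipoprotein receptor, and Srxn1 and Gclm, targets of the stress factor NRF2, as leading genes. Cd36 was at 860 CPM in 61 of 62 cells against 227 CPM in Mrc1-high cells, Lgals3 at 7764 against 2002 CPM, Gpnmb at 3241 against 1327 CPM and Prdx1 at 5013 against 1482 CPM. Of the lists, 9 of 17 NRF2, heme and iron genes, 8 of 17 lipid-associated genes and 12 of 44 TNF and NF-kB response genes were at least 2-fold above the other Mrc1-low cells. The share was 1.6% for all genes with at least 20 CPM. These lists summed to 61183 against 25562 CPM, 38086 against 19015 CPM and 4152 against 1633 CPM. Of those 12 TNF and NF-kB response genes, 8 were present in at least 10% of the cells. Only 1 of its cells was marked as a doublet and its median depth was 20523 UMI. Mmp12 is a poor guide to the cluster, since 1 cell held 60.4% of the Mmp12 UMI of all Mrc1-low cells.

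Cluster 3 held 53 cells with a median of 3868 UMI, 50 of them with 0 UMI of Mrc1. In cells under 5000 UMI the Mrc1 limit allows no Mrc1 UMI, so for these the 0 follows from the rule. Of the 53 cells, 10 (18.9%) were marked as doublets. The cluster was led by AY036118, with Gm42418 among its leading genes, both of which overlap ribosomal RNA sequence, and is left unnamed. Of 35 cell cycle genes, 15 were at least 2-fold above the other Mrc1-low cells, 11 of them in at least 10% of the cells, against 2.04% of all genes with at least 20 CPM. The list summed to 3340 against 1260 CPM. Stmn1, a tubulin-binding protein of dividing cells, was at 597 against 195 CPM, and Hmgb2, a chromatin protein, at 222 against 69.7 CPM. The summed levels go against the name non-cycling for this cluster, whose cells were held to a fixed number of Mki67 and Top2a UMI whatever their depth.

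Cluster 4 held 51 cells, 37 of them from Per2-/- on day 10, 9 from Per2-/- and 5 from Per1-/- on day 7, and none from the other 6 libraries. Since most came from 1 library, the cluster may be that library and not a type. Apoe, the main apolipoprotein of macrophages, was at 17051 CPM in it against 7311 CPM in the Mrc1-high cells of all libraries, Apoc1 at 788 against 37.8 CPM, Slc40a1, the iron exporter ferroportin, at 521 against 238 CPM, and Rsad2, an interferon target, at 189 against 56.2 CPM. In the Mrc1-high cells of Per2-/- on days 7 and 10, Apoe was at 16018 and 12617 CPM and Apoc1 at 56.3 and 78.4 CPM. Most of the difference in Apoe was thus not seen within these libraries. Of 42 interferon genes, 13 were at least 2-fold above the other Mrc1-low cells, 12 of them in at least 10% of the cells, against 2.14% of all genes with at least 20 CPM. The list summed to 4898 against 2648 CPM. The genes that go with Mrc1 in tissue-resident macrophages summed to 10220 CPM in cluster 4 against 3946 CPM in the other Mrc1-low cells. None of its cells was marked as a doublet.

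Cluster 5 held 49 cells, 30 of them from Per1-/- on day 7, and had Fcrls, Gpr65, Cd72, Cxcl16 and Cx3cr1 among its leading genes. Cx3cr1, the fractalkine receptor, was at 511 CPM against 164 CPM in Mrc1-high cells, and Cd72 at 419 against 51.8 CPM. C1qa was at 2678 CPM against 1838 CPM, the highest of the clusters.

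Cluster 6 held 34 cells and had 1 to 6 in each of the 9 libraries. Its leading genes were Cbfa2t3, a transcriptional repressor of blood cells, Siglech, Ighm, the heavy chain of IgM, and Cd33. Cbfa2t3 was at 638 CPM against 45.2 CPM in Mrc1-high cells, Siglech at 258 against 25.7 CPM and Ighm at 646 against 92.2 CPM in 33 of 34 cells. Cx3cr1 was at 595 CPM and Tyrobp at 5770 CPM, the highest of the clusters, while C1qa was at 434 CPM and Fcrls at 23.1 CPM. No doublet was marked and the median macrophage sum was 137 per 10000.

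Cluster 7, with 20 cells from 7 libraries, was osteoclast-like by the marker list, which summed to 4535 CPM against 186 CPM in the other Mrc1-low cells. Of its 10 genes 7 were at least 2-fold above the other Mrc1-low cells, against 1.07% of all genes with at least 20 CPM. Ctsk, the collagen-degrading cathepsin K, was at 1946 CPM, Mmp9 at 1354 CPM and Acp5, tartrate-resistant acid phosphatase, at 575 CPM, against 7.56, 4.36 and 1.14 CPM in Mrc1-high cells. These genes were present in 9, 9 and 10 of its 20 cells, so not all of them were of this kind. S100a4 was at 2922 CPM in 18 of 20 cells. In all Mrc1-low cells, 5 cells held 75.8% of the UMI of Acp5, Ctsk, Mmp9, Ocstamp and Dcstamp.

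Cluster 8 was the smallest, with 17 cells from 7 libraries, and had no UMI of Mrc1 in any cell, which at its 182240 UMI allows a level of up to 16.5 CPM (3 counts). It was led by Armcx6, Cd59a and Armcx2. Pou3f2 was present in 17 of 17 cells at 1017 CPM, against 50.1 CPM in Mrc1-high cells. Vector and endogenous transcripts cannot be told apart in these counts. The macrophage sum was low, at a median of 38.5 per 10000, and C1qa was at 22.0 CPM, Lyz2 at 264 CPM and Csf1r at 192 CPM, while the general leukocyte genes Ptprc at 885 CPM and Laptm5 at 1660 CPM stood above the Mrc1-high values of 289 and 1118 CPM. Laptm5 and Csf1r were used by the rule that chose the cells, so their levels are no check on what the cells are. Spi1 was at 599 CPM against 347 CPM. As in cluster 6, Ighm (544 CPM), Cbfa2t3 (423 CPM) and Siglech (165 CPM) were high. Fibroblast markers summed to 648 CPM against 1392 CPM in the other Mrc1-low cells and neuron markers to 319 against 298 CPM, and 4 cells were marked as doublets. The other Mrc1-low cells include cluster 1, at 3991 CPM of fibroblast and 768 CPM of neuron markers. Clusters 2 to 7 were at 161 to 318 CPM and 37.0 to 200 CPM, below cluster 8 in both lists. The cells are leukocytes by Ptprc, but their complement and lysozyme genes go against the label of macrophage.

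**Figure D3:**
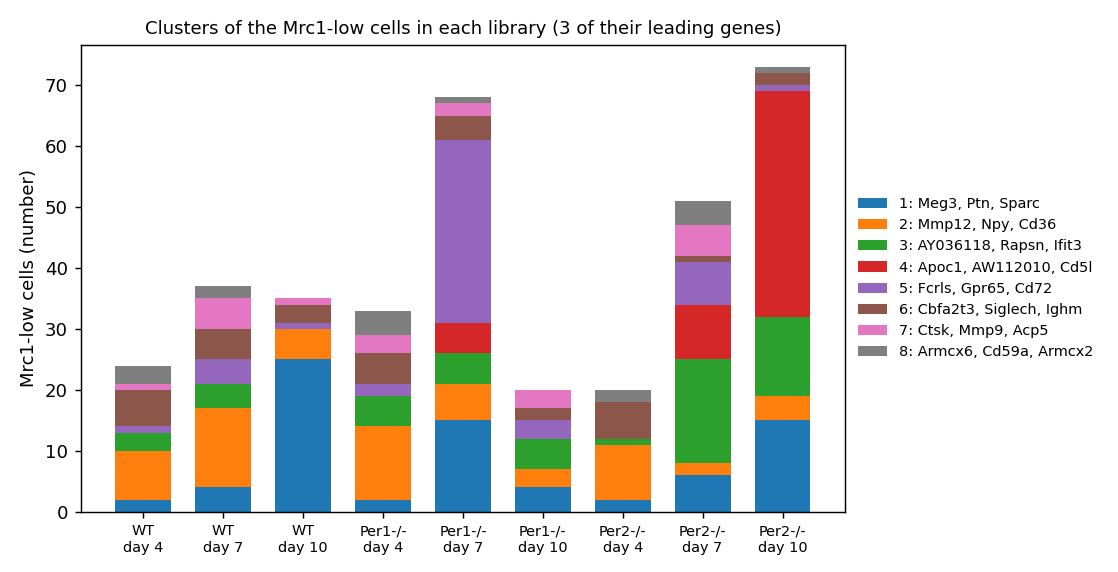
Number of Mrc1-low cells (y axis) in each library (x axis), stacked by cluster, with 3 of the leading genes of each cluster in the key. Cluster 1 makes up 25 of 35 cells in WT on day 10, cluster 4 makes up 37 of 73 in Per2-/- on day 10, and cluster 5 makes up 30 of 68 in Per1-/- on day 7.

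**Figure D4:**
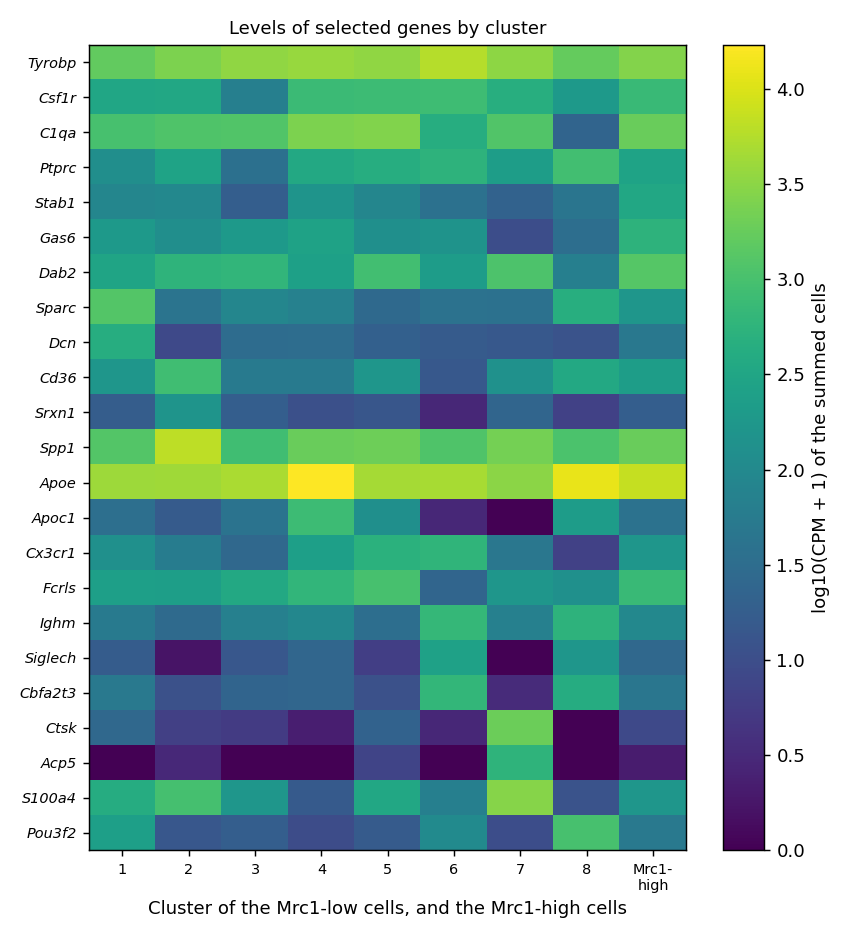
Levels of selected genes (rows) in the summed cells of clusters 1 to 8 of the Mrc1-low cells and in the Mrc1-high cells (columns), as log10(CPM + 1) by colour. Pou3f2 is highest in cluster 8, Ctsk and Acp5 in cluster 7, Apoe and Apoc1 in cluster 4, and Cd36 and Spp1 in cluster 2.

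The summed counts of the Mrc1-low cells were compared between genotypes and days with edgeR's quasi-likelihood test, over 8557 genes and with Benjamini-Hochberg adjustment. With 1 library per genotype and day, the days serve as repeats of a genotype and the genotypes as repeats of a day. The labels do not say which libraries came from separate MEF preparations, so the p-values measure only the spread between these libraries. The sums held 244430 to 1402804 UMI. The Per1-/- libraries of days 7 and 10 held almost only male cells, so sex cannot be told apart from genotype there. Non-cycling macrophages of Per1-/- with Y-linked and no Xist UMI numbered 60, 1068 and 1161 on days 4, 7 and 10. Those with Xist and no Y-linked UMI numbered 148, 1 and 0. Within Per1-/-, sex thus cannot be told apart from day between day 4 and the later days. From day 4 to day 7 the log2 fold of Xist was -2.05, and all 4 Y-linked genes were above 0.

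Few genes differed between genotypes. In Per2-/- against WT 1 gene rose (0.0117% of those tested) and none fell (395 at an unadjusted p under 0.05, and 4 passed in DESeq2). The gene was Apoc1, an apolipoprotein of lipid-laden macrophages (chromosome 7, 19689481 to 19692660, minus strand, GRCm38). It stood at 0, 7.04 and 16.4 CPM in the Mrc1-low cells of WT on days 4, 7 and 10, 15.9, 113 and 39.9 CPM in Per1-/- and 68.9, 206 and 375 CPM in Per2-/-. Per2-/- was thus the highest on each day. Apoc1 leads cluster 4, which held 37 cells of Per2-/- on day 10, 9 of Per2-/- and 5 of Per1-/- on day 7 and 0 of WT, so the groups compared differ in the clusters they hold. Cluster 4 held 0 cells on day 4, where Apoc1 was at 0 CPM in WT and 68.9 CPM in Per2-/-. The log2 fold was 5.09 ± 0.58 (SE), with an edgeR adjusted p of 0.0241, and the same direction in 3 of 3 days. In Mrc1-high cells Apoc1 ran from 7.06 to 78.4 CPM and its mean log2 difference was 0.84. Of the Apoc1 UMI in Mrc1-low cells, 5 cells held 63.8%, and the call held in 8 of 16 alternatives (adjusted p from 7.61e-34 to 0.9998), being lost without doublets and without WT on day 4 (adjusted p = 0.125), day 7 (0.343) or day 10 (0.365) among others.

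Apoe, the neighbour of Apoc1 in the same gene cluster, did not pass. Apoe and Ly86 are also leading genes of cluster 4. Apoe was at 3179, 5186 and 1702 CPM in WT on days 4, 7 and 10, 3458, 2268 and 814 CPM in Per1-/- and 8805, 12894 and 10073 CPM in Per2-/-. The Per2-/- values did not overlap with the others. The log2 fold was 1.88 ± 0.35 against WT (edgeR adjusted p = 0.346), and -2.50 ± 0.37 for Per1-/- against Per2-/- (edgeR adjusted p = 0.168). The mean log2 difference in Mrc1-high cells of the same libraries was 1.65 and -2.34. Ly86, which encodes the Toll-like receptor partner MD-1, had a like pattern with log2 folds of 1.85 and -1.97 that did not pass. Cluster 4 held 0 cells on day 4, where Apoe was at 3179 CPM in WT and 8805 CPM in Per2-/-.

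In Per1-/- against WT no gene passed in edgeR (0% of those tested, with 409 genes at an unadjusted p under 0.05, while 6 passed in DESeq2). The smallest p was that of Ighm, at 228, 211 and 221 CPM in WT on days 4, 7 and 10 against 79.3, 58.5 and 62.7 CPM in Per1-/- and 163, 96.9 and 95.05 CPM in Per2-/-. WT was the highest on each day and Per1-/- the lowest. The log2 fold was -1.71 ± 0.21 (edgeR adjusted p = 0.0528), and 7 of 16 alternatives passed. In Mrc1-high cells Ighm was at 130 to 160 CPM in WT and 58.6 to 90.3 CPM in Per1-/-. Fcgr2b was higher in Per1-/- by 3.35 ± 0.54 without passing (edgeR adjusted p = 0.212), and Wfdc17 by 1.36 ± 0.24 (0.321). In the cells that are not macrophages their mean log2 differences were 0.71 and 1.34. Ighm is a leading gene of cluster 6, which held 6, 5 and 3 of the 24, 37 and 35 WT cells on days 4, 7 and 10 and 5, 4 and 2 of the 33, 68 and 20 Per1-/- cells. Fcgr2b is one of cluster 5, which held 1, 4 and 1 of these WT cells and 2, 30 and 3 of the Per1-/- cells, so the groups compared differ in the clusters they hold. In Per1-/- against Per2-/- no gene passed in edgeR either (0%, with 412 at an unadjusted p under 0.05 and 5 passing in DESeq2). Without doublets 11 genes passed in edgeR.

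None of the gene lists had a member that passed between genotypes. Of 33 interferon genes tested, 31 had a log2 fold above 0 in Per2-/- against WT, with a list median of 0.80 against 0.00 for all genes. Cluster 4, in which 13 interferon genes were at least 2-fold higher, held cells of Per2-/- and none of WT, so the groups compared differ in their clusters here as well. Against WT the list median in Per1-/- was 0.20, with 21 of 33 above 0. Of 29 TNF and NF-kB response genes, 24 were above 0 in Per1-/- against WT and 20 in Per2-/- against WT, with list medians of 0.41 and 0.22. In Per1-/- against WT all 6 osteoclast markers tested were above 0 (list median 2.02) and 11 of 13 neuron markers below 0 (list median -0.95), and the part of either in the other values was not tested. Of all 8557 genes tested, 4280 were above and 4277 below 0 in this contrast. In all Mrc1-low cells together, 5 cells held 75.8% of the UMI of Acp5, Ctsk, Mmp9, Ocstamp and Dcstamp. The comparisons of both mutants with WT share the WT libraries. Of 12 clock genes, 7 and 6 were above 0 in the mutants against WT.

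From day 4 to day 7 there were 7 genes that passed (0.0818% of those tested), 5 higher (0.0584%) and 2 lower (0.0234%). Wfdc17, a small secreted protein of macrophages, stood at 101, 252 and 138 CPM on day 4 in WT, Per1-/- and Per2-/-, at 487, 1109 and 667 CPM on day 7, and at 491, 1430 and 1484 CPM on day 10. Each day 7 value was above each day 4 value. The log2 fold was 2.23 ± 0.25 (edgeR adjusted p = 0.00967). The mean log2 difference was 1.10 in Mrc1-high cells and 2.12 in the cells that are not macrophages. Tmem176b and its neighbour Tmem176a, channel-like proteins of immature myeloid cells, rose by log2 folds of 2.28 ± 0.31 and 2.45 ± 0.36. Tmem176b went from 37.6 to 72.7 CPM on day 4 to 197 to 327 CPM on day 7. Pltp, the phospholipid transfer protein, rose by 2.004 ± 0.30, from 83.9 to 116 CPM to 319 to 520 CPM. Mrc1-high cells rose too, with mean log2 differences of 1.49, 1.54 and 0.98 for Tmem176b, Tmem176a and Pltp. In the cells that are not macrophages these were -0.17, -0.34 and 0.66. The neuronal gene Gria2 rose too, with 8.31% of Mrc1-low cells holding a UMI. Of 13 neuron markers 11 were above 0 from day 4 to day 7 (list median 1.01), as were 11 of 13 fibroblast markers (0.84), and their part in the 7 calls was not tested.

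Il1rn fell, from 165, 140 and 100 CPM on day 4 in WT, Per1-/- and Per2-/- to 57.8, 22.1 and 14.8 CPM on day 7, by 2.23 ± 0.31 on the log2 scale (edgeR adjusted p = 0.0401). It was 38.2 to 54.2 CPM on day 4 and 9.22 to 23.8 CPM on day 7 in Mrc1-high cells. Il1rn is a leading gene of cluster 6, which held 6, 5 and 6 cells on day 4 and 5, 4 and 1 on day 7 in WT, Per1-/- and Per2-/-, and Pltp is one of cluster 4, which held 0 cells on day 4 and 0, 5 and 9 on day 7, so the days compared differ in the clusters they hold. The other gene that fell, Gal, a neuropeptide gene, rested on 1 cell with 65.9% of its UMI. Leaving out WT, Per1-/- or Per2-/- of day 4 ended all 7 calls (0 genes passed in edgeR, with 687, 486 and 483 at an unadjusted p under 0.05), and leaving out WT, Per1-/- or Per2-/- of day 7 gave 4, 3 and 4 genes that passed. The adjusted p of Wfdc17 ran from 1.74e-19 to 0.418 over its 16 alternatives, 15 in edgeR and 1 in DESeq2.

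From day 7 to day 10, 51 genes passed (0.596%), 43 higher (0.503%) and 8 lower (0.0935%). For 38 of them the cells that are not macrophages moved at least 2-fold the same way, and for 19 at least 4-fold in all 3 genotypes, Rnasek, Atp6v0c and Tomm6 among them. The feature tables differ between day 10 and the other days, so time and processing cannot be told apart for any of the 51 genes or in any other comparison with day 10. The other 13 did not move 2-fold in other cells, but all except Aqp4, Gfap and Fabp7 moved the same way there by less. Those that did had mean log2 differences there of -0.73 for Miat and 0.50 to 0.76 for the others. For Rpl27 it was 0.67, against a log2 fold of 0.82 in Mrc1-low cells. Miat, a nuclear noncoding RNA, fell from 39.4, 82.0 and 91.2 CPM to 4.09, 8.54 and 10.2 CPM in WT, Per1-/- and Per2-/-, by 3.18 ± 0.33 on the log2 scale (edgeR adjusted p = 0.000712). Only 11.6% of Mrc1-low cells held a UMI of Miat, and 17.2% of its 279 UMI lay in 1 cell. Lilrb4a, an inhibitory receptor of myeloid cells, rose by 1.82 ± 0.27 (edgeR adjusted p = 0.0106), Pik3ap1, a signalling adaptor, by 1.62 ± 0.26 (0.0171) and Dbi by 1.16 ± 0.21 (0.0361). Ednrb, the endothelin receptor, rose by 3.58 ± 0.47 (edgeR adjusted p = 0.00529) and is the 1 of 9 genes of the Mrc1-associated list that passed in any contrast. Ednrb had only 102 UMI in Mrc1-low cells, 18.6% of them in 1 cell. The glial genes Aqp4, Gfap and Fabp7 passed as well, but 5 cells held 79.9% of their UMI. From day 7 to day 10, 3 of 4 Schwann markers were above 0 (list median 2.20), 11 of 13 fibroblast markers (0.35) and 10 of 13 neuron markers (0.26), 25 of the 35 WT cells of day 10 were in cluster 1, and the part of these in the calls was not tested. Gpm6b, Ctla2b, Olfml2a, Apoc2 and Rpl27 complete the 13. Without Per2-/- on day 7, WT on day 10, Per1-/- on day 7, Per2-/- on day 10 or Per1-/- on day 10 the 51 calls were 26, 27, 32, 32 and 33.

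Whether a genotype or day effect in Mrc1-low cells differed from that in Mrc1-high cells of the same libraries was tested over 11164 genes with library as a block. For Per1-/- against WT 3 genes passed (0.0269%), for Per1-/- against Per2-/- there were 4 (0.0358%) and for Per2-/- against WT there were 3 (0.0269%). For day 7 against day 4 there were 8 (0.0717%) and for day 10 against day 7 there were 4 (0.0358%). Leaving out 1 library moved these counts to 1 to 12, 1 to 14, 1 to 8, 3 to 27 and 1 to 19, in this order. Without doublets they were 5, 42, 3, 0 and 10 in edgeR, with 386 genes at an unadjusted p under 0.05 for day 7 against day 4. The clearest by level was Ccl9, a macrophage chemokine, in Per2-/- against WT. It was at 187, 76.1 and 209 CPM in the Mrc1-low cells of WT on days 4, 7 and 10 and 369, 256 and 240 CPM in those of Per2-/-, against 137, 105 and 127 CPM and 143, 87.8 and 37.8 CPM in Mrc1-high cells. The difference of log2 folds was 1.61 ± 0.24 (edgeR adjusted p = 0.0202), and 18.4% of its UMI in Mrc1-low cells came from 1 cell. Ccl9 is a leading gene of cluster 2, at 515 against 107 CPM in the other Mrc1-low cells. On days 4, 7 and 10 this cluster held 8, 13 and 5 of the 24, 37 and 35 WT cells. It held 9, 2 and 4 of the 20, 51 and 73 Per2-/- cells. The groups thus differ in the clusters they hold. On days 7 and 10 cluster 2 was the smaller part of the Per2-/- cells, in which Ccl9 was higher, and its part in the difference was not tested. Apoc1 differed between classes in the same contrast by 3.55 ± 0.50 (edgeR adjusted p = 0.0199).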

How the data were processed

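The members, gene lists and tests were chosen with earlier results of these data known. The matrices the authors deposited give whole-number UMI counts for each gene and barcode, made from 10x 3′ v3.1 libraries. Per the file headers Cell Ranger 4.0.0 was used for days 4 and 7 (31053 genes) and Cell Ranger 6.0.0 for day 10 (32285 genes), while the submitters' processing notes name Cell Ranger 7.1 and the mm10 build (GRCm38). The 30406 genes in both tables were used, and gene positions are those of the GRCm38 annotation. The limits of 3000 UMI and 20% mitochondrial UMI are those of the study's methods.

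Scrublet (scanpy 1.11.5) ranked the barcodes of each library by doublet score, and the top 0.8% of barcodes per 1000 barcodes were marked but kept. Counts were summed per library and class and expressed as CPM. The 9 Mrc1-low sums were tested in edgeR 4.0.16 (R 4.3.3) by the quasi-likelihood test (two-sided), after TMM and filterByExpr, with day and genotype as factors, at an adjusted p of 0.05. The 18 sums of both classes were tested with library as a block and class by genotype and class by day as terms. SEs come from the fold and the F statistic. Shares were tested with scipy 1.17.1, and shares of cells carry Clopper-Pearson 95% intervals. The 361 cells were clustered on 2000 variable genes, 20 principal components and 15 neighbours with leidenalg 0.10.2 at resolution 0.8. Leading genes were ranked by log2 fold with 20 CPM added, among genes in at least 30% of the cluster's cells. The scripts were tested on simulated data.

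Named genes are the 15 higher and 15 lower past the fold with the largest median log2 ratio, for each contrast the 10 each way with the largest fold among genes that passed with at least 20 CPM, or the 5 of smallest p where fewer than 5 passed, and for each difference between classes the 5 of smallest p. Genes named for a cluster, for Mrc1-low cells with the stricter limit, or among the 13 of day 10 were chosen after their values were seen. Alternatives were RLE size factors, DESeq2 1.42.0, no filter on low counts, other limits on UMI and Mrc1, no doublets, cells of 1 sex, cells thinned to 3000 UMI, each library left out and, added after seeing the data, a macrophage sum of at least 60 per 10000 without doublets. Results for some genes are not reported here.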

Additional observations from a re-analysis of the deposited data

Results flagged for a closer look

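The results below are the tests in which a genotype or day effect in Mrc1-low cells differed from that in Mrc1-high cells of the same libraries (edgeR interaction term, adjusted over 11164 genes). They include genes of neurons and glia and genes with most of their UMI in 1 cell, whose part in the results was not tested.

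In Per1-/- against WT, Gal (adjusted p = 0.00217), Miat (0.00697) and Mmp12 (0.0271) differed in edgeR. Gal had 135 UMI in Mrc1-low cells, 65.9% of them in 1 cell, and Mmp12 had 434, 60.4% in 1 cell. Mmp12 was at 19.2, 19.7 and 4.09 CPM in the Mrc1-low cells of WT on days 4, 7 and 10 and at 371, 62.7 and 45.6 CPM in those of Per1-/-, so it was higher on each day. It leads cluster 2, which held 8, 13 and 5 of these WT cells and 12, 6 and 3 of these Per1-/- cells. The difference of log2 folds for Miat was 2.93 ± 0.40, and it was 0.15 in cells with a macrophage sum of at least 60 per 10000 and no doublets.

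In Per1-/- against Per2-/-, Gal (adjusted p = 0.00174), Aqp4 (0.0119), Fabp7 (0.0119) and Cryab (0.0316) differed in edgeR. Aqp4, the water channel of astrocytes, had 68 UMI in Mrc1-low cells, 60.3% of them in 1 cell, and was at 0 CPM in 7 of 9 libraries. In Per2-/- against WT, Apoc1 (adjusted p = 0.0199), Ccl9 (0.0202) and Fabp7 (0.0375) differed in edgeR. Apoc1 and Ccl9 were past the threshold in 14 and 13 of 16 alternatives.

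In day 7 against day 4, the long non-coding RNA Miat (adjusted p = 6.35e-06), Runx1t1 (0.00114) and the neuronal genes Nrxn3 (0.0369), Map1b (0.0493) and Elavl3 (0.0493) led the 8 genes that differed in edgeR. Miat was at 9.59, 27.7 and 43.8 CPM on day 4 and 39.4, 82.0 and 91.2 CPM on day 7 in the Mrc1-low cells of WT, Per1-/- and Per2-/-, while in Mrc1-high cells it went from 30.4 to 67.2 CPM to 3.36 to 17.8 CPM. Without doublets none of these genes passed in edgeR (386 at an unadjusted p under 0.05). In day 10 against day 7, Miat (adjusted p = 0.00605), Aqp4 (0.00884), Ednrb (0.0449) and Ccl9 (0.0449) differed in edgeR. Day 10 has its own feature table, so time and processing cannot be told apart here.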

How the results depend on the processing

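The shares of Mrc1-low cells kept their sign under all 16 alternatives. Without 1 library the genotype tests have 9 or 18 assignments and could not reach 0.05, so that they did not pass there shows nothing. Without 1 library they ran from -5.72 to -2.74 points for Per1-/-, -3.60 to -0.53 for Per2-/-, 4.91 to 7.26 for WT and -2.44 to -0.93 per day. The labels give no replicate numbers, so no replicate block was fitted, and libraries were matched by day and genotype in each test. The cells with Y-linked and no Xist UMI left 4 libraries and could be fitted for Per1-/- against Per2-/- and day 10 against day 7. Counts of genes passing depend on which cells and libraries enter. Fitting without a filter on low counts raised every count, and the cause was not tested.

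Without 1 library the genes past the fold numbered 20 to 49 higher and 36 to 48 lower in Mrc1-low cells. With 0 UMI of Mrc1 they were 13 and 88, and with a macrophage sum of at least 60 per 10000 and no doublets 11 were higher. Genes passing in Mrc1-low cells numbered 0 to 3 for Per1-/- against Per2-/-, 0 to 10 for Per1-/- against WT, 0 to 2 for Per2-/- against WT, 26 to 52 for day 10 against day 7 and 0 to 11 for day 7 against day 4 without 1 library. In that order they were 118, 110, 104, 149 and 191 without the filter. DESeq2 gave 5, 6 and 4 between genotypes and 19 for day 7 against day 4. Without doublets they were 11 for Per1-/- against Per2-/-, 2 for Per1-/- against WT and 89 for day 10 against day 7, and with the sum of 60 as well 3 and 1 for the genotypes. With 0 UMI of Mrc1 they were 0 for Per2-/- against WT in edgeR, 10 for day 10 and 1 for day 7. Cells of at least 10000 UMI gave 1 for day 7 and those with Y-linked UMI 5 for day 10.

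Differences between classes numbered 1 to 14, 1 to 12, 1 to 8, 1 to 19 and 3 to 27 without 1 library and 43, 54, 31, 35 and 114 without the filter, in the same order. With 0 UMI of Mrc1 they were 11, 35 and 15 for the genotypes and 24 for day 7. DESeq2 gave 0 for Per1-/- against Per2-/- (203 at an unadjusted p under 0.05) and 2 for day 10. Cells of at least 10000 UMI gave 2, 2 and 3 for Per1-/- against Per2-/-, day 10 and day 7, and those with Y-linked UMI 38 and 17 for the first and second of these. Without doublets they were 42, 5, 10 and 0 for Per1-/- against Per2-/-, Per1-/- against WT, day 10 and day 7, and with the sum of 60 as well 7, 8 and 1 for the last 3.

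Among named genes the sign turned for Aqp4 in the difference between Per1-/- and Per2-/- (-3.21 in DESeq2, -4.57 to 14.8 without 1 library, the lower of them without Per2-/- on day 10), for Aqp4 in Per2-/- against WT (-8.92 to 0.054 without 1 library, the higher of them without Per2-/- on day 10) and for Miat in Per2-/- against WT (-0.67 without doublets, -1.97 with the sum of 60 as well). With 0 UMI of Mrc1 the median log2 ratio turned to -0.97 for Gas1, -0.37 for Lox, -0.42 for Aspn, -0.15 for Penk and -0.46 for Prrx1, and with the sum of 60 and no doublets to -0.030 for Penk and -0.10 for Prrx1. The Mrc1-low sums with 0 UMI of Mrc1 were small, at 66877 to 327241 UMI.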

Other observations

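Spp1, which encodes osteopontin, was carried by cells of both classes. Of the Mrc1-low cells 28 (7.76%) had at least 50 UMI of Spp1 per 10000, in 8 libraries, and of the Mrc1-high cells 412 (7.61%). Ccl5, an inflammatory chemokine, was held by few cells, with 552 UMI in 10 Mrc1-low cells and 61.4% of them in 1 cell, against 427 UMI in 93 Mrc1-high cells.

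Microglia markers were present at low levels. Of 5 compared, Gpr34 was lower in Mrc1-low cells in 9 of 9 libraries, at 13.2 to 117 CPM against 51.9 to 165 CPM, P2ry12 was at 5.70 to 56.3 CPM against 30.4 to 81.3 CPM, and Olfml3 was at 8.54 to 49.5 CPM against 6.01 to 20.5 CPM. Dendritic cell markers summed to 33.0 to 132 CPM in Mrc1-low cells and 15.7 to 64.4 CPM in Mrc1-high cells, with 1 gene of the list high enough to compare. Monocyte markers summed to 536 to 1309 CPM against 243 to 693 CPM, mainly through S100a4. Of 17 lipid-associated genes 9 were above and 8 below 0 (list median 0.03), and of 14 NRF2, heme and iron genes 8 and 6 (0.02). Of 15 cell cycle genes 12 were below 0 (list median -0.27), of 3 alternative activation genes 2 (-0.76) and of 2 Schwann markers 1 (-0.18, and 0.07 with a macrophage sum of at least 60 per 10000 and no doublets). MHC class II genes summed to 14.2 to 115 CPM in Mrc1-low cells and 12.7 to 25.6 CPM in Mrc1-high cells, skeletal muscle markers to 0 to 45.0 CPM and 7.22 to 62.5 CPM, endothelial markers to 5.70 to 24.5 CPM and 12.4 to 20.4 CPM, and erythroid markers to at most 0.79 CPM and 0.47 CPM, with 0 genes of these lists high enough to compare.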
